A study of Mus musculus with 6 samples.

Results

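DNA replication and S phase genes were followed as a named list of 43 genes in ETX-embryos, embryo-like structures built from 3 kinds of mouse stem cell (embryonic, trophoblast and extraembryonic endoderm). A gene was taken when its name in the expression table equalled a listed symbol, and 43 of 43 were present among 12826 genes. All 43 also passed the filter on low values, an average of 1 FPKM or more across libraries, as did 10914 genes in all. FPKM counts fragments relative to transcript length and to the total mapped in that library, so levels can be compared between genes. Values are on the log2(FPKM + 1) scale unless FPKM is named, and runs of 3 values follow the order embryo A, B, C.

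The series holds 6 libraries, since each of the ETX-embryos A, B and C gave 1 anterior and 1 posterior piece. The structures carried a T/Brachyury-GFP reporter and all were untreated. Per the labels' protocols the trophoblast part was removed, the embryonic part was cut along its length, GFP-positive pieces became the prospective posterior libraries, and GFP-negative pieces the prospective anterior ones. Each piece was read as 1 low-input Smart-seq2 library, so a level is an average over its cells, and fewer cells of a type cannot be told apart from less RNA per cell. T, the reporter's gene, was listed at 0, 0 and 42.5 FPKM in anterior pieces against 5.03, 15.6 and 0 FPKM in posterior pieces. The library labelled anterior C and the library labelled posterior C thus go against their labels for this gene. Other primitive streak genes followed the labels in embryo C, with Mixl1 at 0 in the anterior and 4.97 in the posterior piece, Sp5 at 0 and 4.91, Wnt3 at 0.92 and 6.15, and Nodal at 0.32 and 4.77. Values without embryo C or without anterior C are given where they matter.

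Replication starts at origins bound by the origin recognition complex, where Cdc6 and Cdt1 load the MCM hexamer in G1. Cdc45 and the GINS complex then turn the hexamer into the active helicase, RPA coats the single strands, the RFC clamp loader places the PCNA clamp, and the primase and polymerases copy the strands. Many of these genes are transcribed shortly before and during S phase under E2F factors, so their transcripts are common markers of dividing cells.

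Promoter sequences were not used to choose the members. Since many replication genes are known to be under E2F factors, E2F-type words among them are not an independent finding. RefSeq promoter windows of 300 bases around the start site (GRCm38.p6) were matched by symbol for 36 of the 43 genes. They were searched on both strands for the E2F-type words TTTGGCGC, TTTCCCGC, TTTGCCGC and TTTCGCGC, which can overlap each other, and for CCAAT, the word bound by NF-Y. An E2F-type word was present for 12 of 36 members (33.3%), against 5.24% of 7698 tested genes with a promoter and 2.26% of all 32851 promoters. CCAAT was present for 22 of 36 members (61.1%), against 43.9% of those tested genes and 37.4% of all promoters. A gene was counted when any of its promoters matched, whereas the shares of all promoters count each promoter. A match is a description of letters only. Pole, Rfc2, Mcm4, Prim2, Tipin, Gins1 and Gins2 were not matched.

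The first windows show 4 members with an E2F-type word before the RefSeq start site and outside annotated exons. The GENCODE gene of Cdc6 starts further upstream, so its window lies within that gene. Capitals mark the word, and in Mcm5 and Mcm6 a pair of words on opposite strands overlap.
Cdc6, chr11:98907983-98908062, plus strand: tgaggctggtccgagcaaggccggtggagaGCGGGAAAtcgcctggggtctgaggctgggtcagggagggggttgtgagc
Mcm5, chr8:75109326-75109405, plus strand: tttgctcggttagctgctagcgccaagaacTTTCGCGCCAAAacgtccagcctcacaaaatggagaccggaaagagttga
Mcm6, chr1:128359766-128359845, minus strand: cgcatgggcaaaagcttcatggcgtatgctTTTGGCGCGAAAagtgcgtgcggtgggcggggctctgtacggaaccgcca
Pola1, chrX:93632244-93632323, minus strand: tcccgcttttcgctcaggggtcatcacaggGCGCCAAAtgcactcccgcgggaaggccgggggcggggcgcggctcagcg

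The next windows show CCAAT, or its reverse complement ATTGG, in 3 members whose anterior and posterior libraries did not overlap in level. Capitals mark the word, which occurs at 2 places in the Rpa3 window.
Mcm2, chr6:88898906-88898985, minus strand: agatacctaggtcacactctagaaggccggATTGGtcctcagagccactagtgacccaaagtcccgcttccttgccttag
Rpa3, chr6:8259178-8259257, minus strand: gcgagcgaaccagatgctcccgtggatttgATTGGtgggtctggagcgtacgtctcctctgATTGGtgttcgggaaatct
Rrm2, chr12:24708174-24708240, plus strand: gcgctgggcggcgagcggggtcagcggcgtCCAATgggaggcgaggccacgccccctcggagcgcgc

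E2F-type words were found in 4 of 7 helicase genes, 4 of 7 polymerase and primase genes, 2 of 4 licensing genes, 1 of 5 clamp and clamp loader genes and 1 of 2 Okazaki fragment genes. They were found in 0 of 5 nucleotide supply genes, 0 of 3 RPA genes and 0 of 3 fork and chromatin genes. CCAAT was found in 7 of 7 helicase genes, 3 of 3 RPA genes, 3 of 5 clamp and clamp loader genes, 2 of 3 fork and chromatin genes, 2 of 4 licensing genes, 3 of 7 polymerase and primase genes, 2 of 5 nucleotide supply genes and 0 of 2 Okazaki fragment genes. Of the 9 matched members whose posterior libraries all lay above the anterior ones 3 had an E2F-type word, and of the 26 with overlapping groups 9 had one. CCAAT was present for 5 of those 9 and for 16 of those 26, so it was no more frequent without overlap.

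Libraries differed in depth along with domain. Depth relative to anterior A was 1.41 and 1.43 in anterior B and C and 1.57 to 2.83 in posterior pieces, and 5.34% to 27.2% of genes were listed at 0. Over the genes tested, the median difference (posterior minus anterior throughout) was 0.43. The 10 epiblast-type markers summed to 21.8, 73.3 and 290 FPKM in anterior pieces against 385, 225 and 404 FPKM in posterior pieces. Of these, 5, 7 and 7 of 10 lay above 0 against 10 of 10 each, with Tdgf1 and Esrrb at 0 in every anterior piece. The posterior level exceeded the anterior one for 10, 9 and 8 markers in embryos A, B and C. The exceptions were Fgf5 in embryo B (3.57 anterior, 3.46 posterior), and Otx2 (7.29, 4.15) and Dnmt3b (5.92, 5.24) in embryo C. Parietal endoderm and XEN markers, 11 in number, summed to 1138, 1684 and 297 FPKM against 349, 368 and 773 FPKM, with Gata4, Sox17 and Sox7 at 0 in anterior C. Visceral endoderm markers summed to 118 to 1104 FPKM against 711 to 3498 FPKM, trophoblast markers to 304 to 443 FPKM against 269 to 655 FPKM, and primitive streak markers to 0.127 to 45.0 FPKM against 261 to 347 FPKM, where T made up 42.5 of the 45.0 FPKM in anterior C. Spink3 made up most of each posterior sum of visceral endoderm markers, at levels of 9.56, 11.7 and 9.31 against 8.93, 8.25 and 3.59 in anterior pieces. Of the 8 visceral endoderm markers in the fit, 3, 3 and 4 were higher in the posterior piece of embryos A, B and C. Their median difference by embryo was -1.64, -1.51 and 1.36, so the sums do not stand for the list. The part of depth and of other cells in the results below was not tested.

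Replication genes were well expressed in most pieces. Orc6, an origin recognition subunit, had the highest mean level (7.27), followed by Tipin (7.22), Rrm2 (6.95) and Pcna (6.75), and Prim2 (1.41), Cdc45 (2.49) and Pold3 (2.61) had the lowest. The median member stood at 3.51, 4.63 and 4.23 in anterior pieces against 5.29, 5.25 and 5.33 in posterior pieces. Above the median tested gene of the same library this was 1.00, 1.19 and 1.37 against 1.79, 1.88 and 1.92, so the groups did not overlap. For the 7604 genes averaging at least 5 FPKM the same quantity was 1.09, 0.80 and 1.24 against 0.84, 0.89 and 1.05, where the groups did overlap.

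**Figure D1:**
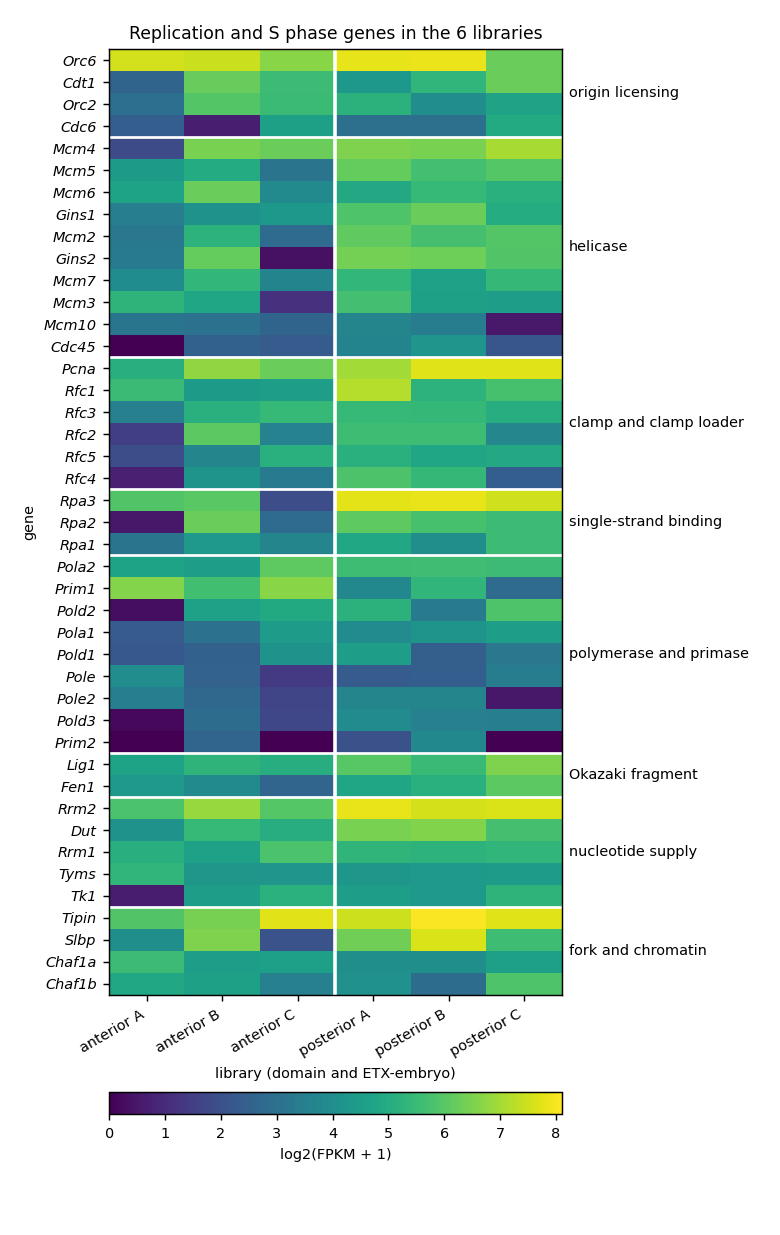
Level of each of the 43 genes (rows, grouped by role and ordered by mean level) in the 6 libraries (columns), in log2(FPKM + 1) by colour, with anterior libraries left of the white line. Dark cells are most frequent in anterior A, where the median member stood at 3.51, against 5.25 to 5.33 in posterior pieces.

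Between the domains, 37 of 43 members had a higher mean in posterior pieces, against 64.9% of all tested genes, with a median difference of 1.07 against 0.43. None of the 43 passed limma's adjusted threshold of 0.05, and neither did any of the 10914 genes (0%). Adjusted p-values of the members ran from 0.521 to 0.995 in limma. At an unadjusted p under 0.05, limma had 6 members higher in the posterior domain (Rpa3, Slbp, Gins2, Mcm2, Rpa2 and Rrm2), against 7.24% of all tested genes, and 1 higher in the anterior domain (Prim1), against 0.788%. The count of 6 was 2 without embryo A and 3 without embryo C. The share of all tested genes in those fits is not given here, so that fall cannot be read as particular to the members.

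Every posterior library lay above every anterior one for 10 of 43 members, against 12.3% of all tested genes. Those 10 were Dut, Fen1, Gins1, Lig1, Mcm2, Mcm5, Pcna, Pold3, Rpa3 and Rrm2. Under quantile normalization Dut, Fen1 and Pcna overlapped, leaving 7 members against 7.49% of all tested genes, and under centring Fen1 overlapped, leaving 9 against 8.84%. Prim1 alone had the reverse order, against 3.77% of all tested genes. A total of 15 members were higher in the posterior piece of 3 of 3 embryos, against 21.5% of all tested genes, and Prim1 and Chaf1a were higher in the anterior piece of 3 of 3, against 8.25%. With fewer libraries a lack of overlap is easier to reach. Members without overlap numbered 20 without embryo B, 23 without embryo C and 16 without anterior C, where all tested genes came to 29.4%, 31.1% and 19.6%.

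The embryos contributed unequally. The median member difference was 1.78, 0.41 and 0.71 by embryo, where the median tested gene differed by 0.91, 0.02 and 0.17. Of the 43 members 38, 27 and 28 were higher in the posterior piece, against 7397, 5543 and 5845 of the 10914 tested genes. The median over members was 0.63 without anterior A and 0.57 without embryo A, with 0.25 and 0.17 for all tested genes. Under quantile normalization, and under centring on genes above 0 in every library, 32 of 43 members had a difference above 0, since Mcm6, Orc6, Pole, Pole2 and Rrm1 changed sign. Those scalings moved the median of all tested genes to -0.03 and 0.11.

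**Figure D2:**
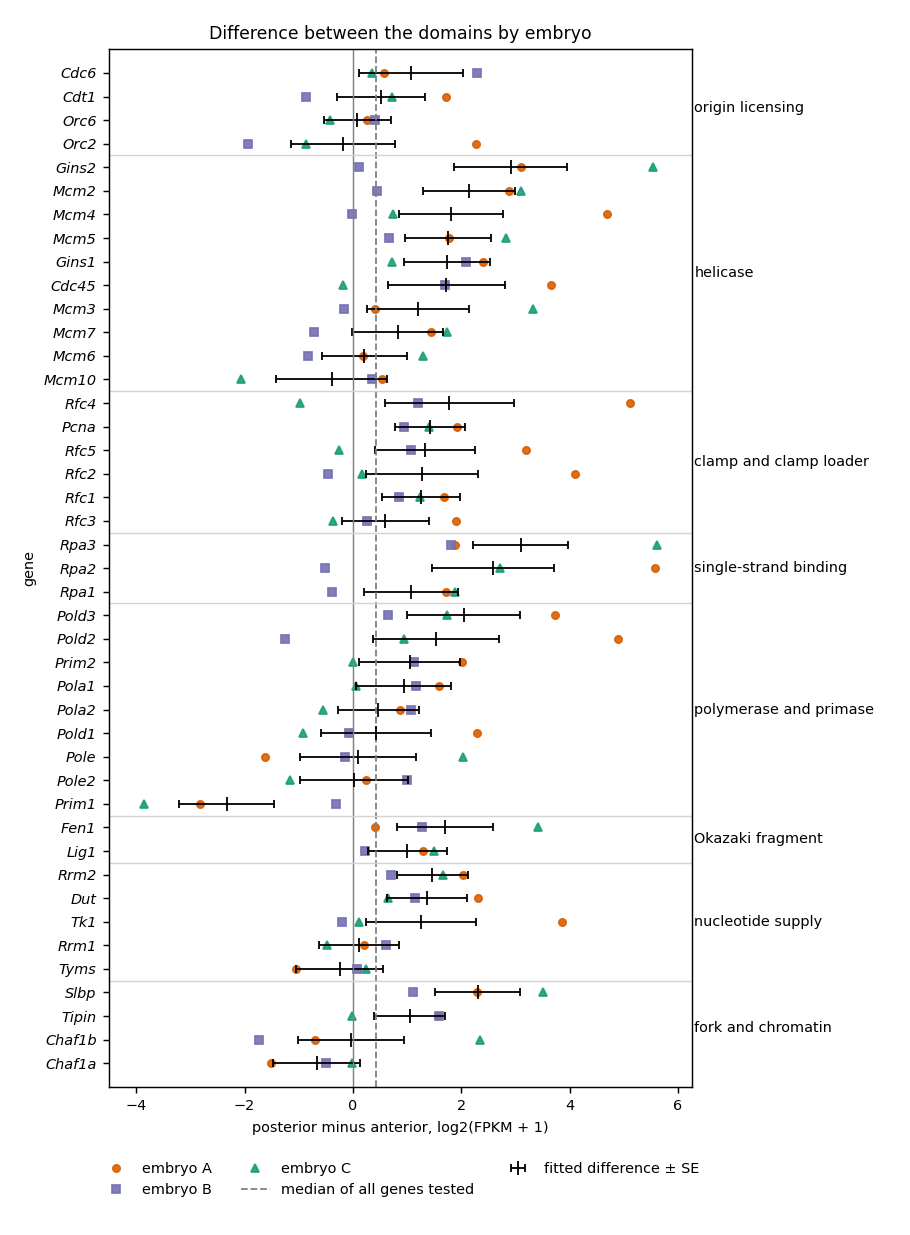
Posterior minus anterior difference in log2(FPKM + 1) on the horizontal axis for each gene, with 1 point per embryo (A circles, B squares, C triangles), the fitted difference as a black tick with its standard error, and the median of all tested genes (0.43) as a dashed line. Most ticks lie right of 0, and Prim1 stands out on the left at -2.33.

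Helicase genes in the list are the 6 MCM subunits, 2 GINS subunits, Cdc45 and Mcm10, a factor that helps start unwinding. Of these 10 genes 9 had a higher posterior mean (8 under quantile normalization or centring, where Mcm6 changed sign), none passed, and the median difference was 1.73 (2.08, 0.23 and 1.52 by embryo, and 1.08 without embryo A). Mcm2, at chr6:88883474-88898780 in GRCm38, had levels of 3.24, 5.25 and 2.82 in anterior pieces against 6.12, 5.70 and 5.92 in posterior pieces. All 3 posterior values lay above the anterior ones, and the difference was 2.14 ± 0.85 (SE; limma adjusted p = 0.608).

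Mcm5 had the same order, with 4.41, 4.999 and 3.13 against 6.18, 5.67 and 5.95. Mcm4 levels were 1.85, 6.48 and 6.28 against 6.53, 6.48 and 7.03. Only anterior A was far from the rest for Mcm4, and its difference of 1.81 ± 0.96 (SE) was 0.29 without that library.

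Mcm3 levels were 5.26, 4.78 and 1.16 against 5.68, 4.62 and 4.49, far below the rest only in anterior C, and its difference of 1.19 ± 0.94 (SE) was -0.092 without that library. Mcm6 levels were 4.71, 6.26 and 3.85 against 4.90, 5.42 and 5.14, and Mcm7 levels 3.93, 5.35 and 3.67 against 5.38, 4.63 and 5.41. For these 3 genes the groups overlapped, and in embryo B the anterior piece was the higher one.

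MCM subunits enter the hexamer once each, so the spread of their transcripts within a library was also compared. The SD among the 6 levels was 1.22, 0.69 and 1.67 in anterior pieces against 0.60, 0.71 and 0.86 in posterior pieces, so the groups overlapped through anterior B. Subunits were most uneven in anterior C, from 1.16 (Mcm3) to 6.28 (Mcm4). Over all tested genes the SD among levels was 2.32, 2.18 and 2.56 against 2.14, 2.10 and 2.46.

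Gins2 (chr8:120578633-120589304) had levels of 3.32, 6.20 and 0.36 against 6.41, 6.31 and 5.89, a difference of 2.91 ± 1.05 (SE; limma adjusted p = 0.573), 1.45 without anterior C and 1.60 without embryo C. In embryo B its pieces differed by 0.11. Its exons overlap those of Gse1 on the other strand over 2758 bases, and reads of the 2 genes cannot be told apart here.

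Gins1 levels were 3.47, 4.17 and 4.31 against 5.86, 6.27 and 5.02, without overlap between the groups (1.73 ± 0.79 SE). Cdc45 was listed at 0 in anterior A and lay between 2.16 and 4.23 elsewhere. Mcm10 was the only helicase gene with a lower posterior mean (-0.39 ± 1.02 SE), at 0.55 in posterior C and between 2.61 and 3.70 elsewhere, and its difference was 0.44 without embryo C.

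**Figure D3:**
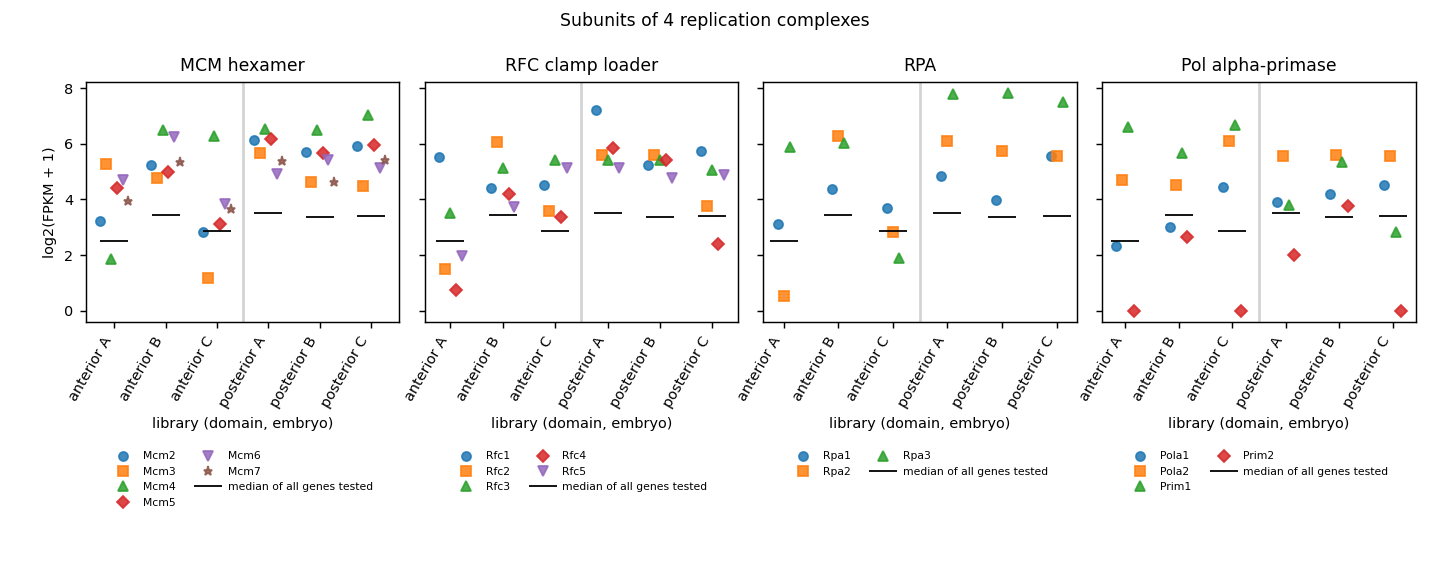
Level in log2(FPKM + 1) of each subunit (symbols) of the MCM hexamer, the RFC clamp loader, RPA and the polymerase alpha-primase complex in the 6 libraries, with the median of all tested genes as a black dash. The MCM subunits lie closer together in posterior pieces (SD 0.60 to 0.86) than in anterior A and C (1.22 and 1.67). Anterior B (0.69) lies within the posterior range. Rpa3 is higher in posterior than in anterior pieces, and Prim1 is lower.

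The clamp and its loader had 6 of 6 genes with a higher posterior mean, none passing, and a median difference of 1.30 (2.55, 0.89 and -0.04 by embryo). That median was 0.64 without anterior A and 0.26 without embryo A. Pcna (chr2:132249162-132253314), the sliding clamp that holds polymerases on the template, had levels of 5.07, 6.76 and 6.29 in anterior pieces against 6.99, 7.70 and 7.69 in posterior pieces. The groups did not overlap as deposited but did under quantile normalization. Each embryo showed the same direction, and the difference was 1.42 ± 0.64 (SE; limma adjusted p = 0.617), or 0.93 without anterior A. Processed pseudogenes of Pcna are annotated, so its value is uncertain where reads were split.

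Rfc1, the large loader subunit, had levels of 5.52, 4.40 and 4.52 against 7.20, 5.25 and 5.75, higher in the posterior piece of 3 of 3 embryos though anterior A lay above posterior B (1.25 ± 0.72 SE). The small subunits Rfc2, Rfc3, Rfc4 and Rfc5 differed by 1.27, 0.60, 1.78 and 1.33, and each was lowest in anterior A, at 1.49, 3.51, 0.74 and 1.96. Without anterior A those differences were 0.16, 0.01, 0.76 and 0.51. The SD among the 5 subunits was 1.90, 0.91 and 0.91 in anterior pieces against 0.80, 0.30 and 1.31 in posterior pieces, with overlap.

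RPA, the trimer that protects single-stranded DNA, had a median difference of 2.59 over its 3 genes (1.88, -0.38 and 2.71 by embryo). This was the largest median of the 8 role groups with all libraries, but it was 1.24 without anterior A and 1.10 without embryo A, below the Okazaki fragment genes at 1.46 and 1.60. Rpa3 (chr6:8255936-8259173), the smallest subunit, had levels of 5.89, 6.03 and 1.91 in anterior pieces against 7.77, 7.83 and 7.52 in posterior pieces. In FPKM these were 58.2, 64.2 and 2.75 against 217, 226 and 182, and the groups did not overlap. The difference of 3.10 ± 0.88 (SE; limma adjusted p = 0.521) had the smallest p of the 43 members, and was 1.75 without anterior C and 1.84 without embryo C.

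Rpa2 levels were 0.52, 6.27 and 2.84 against 6.08, 5.75 and 5.55, so anterior B was its highest library and anterior A its lowest (2.59 ± 1.12 SE; limma adjusted p = 0.617). The difference was 1.24 without anterior A. Rpa1, the large DNA-binding subunit, differed by 1.07 ± 0.87 (SE), or by 0.67 without embryo C. Of the 3 genes Rpa3 alone was higher in the posterior piece of 3 of 3 embryos.

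Polymerase and primase genes had a higher posterior mean in 8 of 9 cases (6 under quantile normalization or centring, where Pole and Pole2 changed sign), none passing, with a median difference of 0.47, close to the 0.43 of all tested genes. By embryo it was 1.59, 0.65 and 0.00, where the last is the value of Prim2, listed at 0 in both pieces of embryo C. The median was 0.27 without embryo A, 1.11 without embryo C and 0.96 without anterior C. Prim1 (chr10:128015168-128030037), the catalytic primase subunit that makes RNA primers, went the other way. Its levels were 6.61, 5.66 and 6.67 in anterior pieces against 3.79, 5.33 and 2.82 in posterior pieces, or 96.5, 49.4 and 101 FPKM against 12.8, 39.3 and 6.05 FPKM. The groups did not overlap, with posterior B just below anterior B (-2.33 ± 0.87 SE; limma adjusted p = 0.585), and the difference was -1.57 without embryo C.

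Prim2, the regulatory primase subunit, was listed at 0 in anterior A, anterior C and posterior C and otherwise stood at 2.65 (anterior B), 2.01 (posterior A) and 3.78 (posterior B). Of the 3 libraries where Prim2 was listed at 0, anterior A and C had the highest Prim1 and posterior C the lowest. The polymerase alpha subunits that bind primase, Pola1 and Pola2, differed by 0.94 ± 0.88 and 0.47 ± 0.75 (SE). These were 0.47 and 0.27 without anterior A, and 1.53 and 0.96 without anterior C.

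Pold3, an accessory subunit of polymerase delta, had levels of 0.16, 2.88 and 1.72 against 3.90, 3.53 and 3.46, without overlap between the groups (2.04 ± 1.04 SE; limma adjusted p = 0.637, and 1.33 without anterior A). Pold1 and Pold2, the catalytic and a further subunit, each had embryo differences of both signs. The polymerase epsilon subunits Pole and Pole2 differed by 0.09 ± 1.07 and 0.02 ± 0.99 (SE), and by -0.63 and -0.25 under quantile normalization.

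Okazaki fragments, the short pieces of the lagging strand, are trimmed by the flap nuclease Fen1 and sealed by the ligase Lig1. Fen1 levels were 4.35, 3.86 and 2.63 in anterior pieces against 4.75, 5.13 and 6.05 in posterior pieces (1.70 ± 0.89 SE). Lig1 levels were 4.71, 5.28 and 5.05 against 6.01, 5.49 and 6.54 (1.00 ± 0.73 SE). In both genes the groups did not overlap, though those of Fen1 did under quantile normalization and centring, and neither passed (limma adjusted p = 0.639 and 0.707). Their median of 1.35 was 0.80 without embryo C, and the difference of Fen1 was 0.84. Exons of Fen1 overlap the antisense gene Gm10143 over 1909 bases, and those of Lig1 overlap Zswim9 over 247 bases.

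Nucleotide supply genes differed among themselves. Rrm2 (chr12:24708241-24714146), the S phase subunit of ribonucleotide reductase, had levels of 5.81, 6.87 and 5.97 in anterior pieces against 7.84, 7.58 and 7.63 in posterior pieces. Dut, which removes dUTP, had levels of 4.15, 5.43 and 5.05 against 6.46, 6.57 and 5.70. Neither gene's groups overlapped, except those of Dut under quantile normalization, with differences of 1.47 ± 0.65 and 1.36 ± 0.73 (SE; limma adjusted p = 0.617 and 0.642).

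Rrm1, the large reductase subunit that pairs with Rrm2, lay between 4.63 and 5.81 in the 6 libraries and differed by 0.11 ± 0.74 (SE), or by -0.15 under quantile normalization. Tyms, which makes dTMP and has annotated processed pseudogenes, differed by -0.25 ± 0.80 (SE) and was highest in anterior A, at 5.32. Without anterior A its difference was 0.11. Tk1, thymidine kinase, was at 0.66 in anterior A and between 4.34 and 5.28 elsewhere, and its difference of 1.26 was -0.14 without anterior A. The group's median of 1.26 was 0.11 without anterior A and 0.15 without embryo A.

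Origin licensing genes had a median difference of 0.30 over 4 genes (1.14, -0.23 and -0.04 by embryo), below that of all tested genes (0.43). It was -0.16 without anterior A, 0.54 without anterior C, -0.06 under quantile normalization and -0.02 under centring. Cdc6, a loading factor, had levels of 2.41, 0.69 and 4.61 in anterior pieces against 2.98, 2.98 and 4.95 in posterior pieces. Cdt1, its partner, had levels of 2.61, 6.21 and 5.55 against 4.32, 5.34 and 6.28. Cdc6 was thus highest in both pieces of embryo C, and Cdt1 lowest in both pieces of embryo A. Orc6 lay between 6.24 and 7.87 and differed by 0.08 ± 0.62 (SE), or by -0.27 under quantile normalization, and Orc2 differed by -0.18 ± 0.96 (SE).

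Fork and chromatin genes were higher in the posterior mean in 2 of 4 cases, with a median of 0.51, which was 0.29 without embryo C and 0.80 without embryo B. Slbp (chr5:33634952-33652574), which binds histone mRNA ends, had levels of 4.04, 6.54 and 2.06 in anterior pieces against 6.33, 7.64 and 5.57 in posterior pieces. The posterior piece was higher in 3 of 3 embryos, although anterior B lay above posterior A and C, and the difference was 2.30 ± 0.78 (SE; limma adjusted p = 0.566) and 1.22 without anterior C. Tipin, part of the fork protection complex, had levels of 5.92, 6.45 and 7.73 against 7.48, 8.04 and 7.70, with overlap. The histone chaperone subunits Chaf1a and Chaf1b differed by -0.67 ± 0.80 and -0.03 ± 0.98 (SE), and Chaf1a shares 4648 exon bases with Ubxn6 on the other strand.

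Low values of single members lay mostly in anterior A and C. A level more than 2 below the median of the other 5 libraries was seen for 15 members in anterior A (34.9%, against 22.6% of tested genes), 1 in anterior B (2.33%, against 4.09%) and 9 in anterior C (20.9%, against 17.9%). In posterior pieces it was seen for 0, 0 and 4 members, the last 9.30% of them against 9.82% of tested genes. Among genes averaging at least 5 FPKM the shares were 28.7% in anterior A, 21.3% in anterior C and 11.3% in posterior C, so the members' share in anterior C and posterior C was close to or below that of other genes. The members low in anterior A included Rpa2, Mcm4, Pold2, Rfc2, Tk1 and Rfc4, and those low in anterior C included Gins2, Rpa3, Slbp and Mcm3. Gins2, Mcm2, Slbp, Rpa2 and Prim2 were low in both libraries, which also had 22.3% and 27.2% of all genes listed at 0.

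Among the 3 embryos, limma's F test of the embryo terms called 0 of 43 members at the adjusted threshold and 0% of all tested genes. At an unadjusted p under 0.05 it had 2 of 43 (Slbp and Prim2), against 2.77% of all tested genes. The smallest p-values belonged to Slbp, Prim2 and Cdt1, each with a limma adjusted p of 0.996.

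A wider S phase list of 66 other genes, 63 of them in the fit, had 43 with a higher posterior mean and a median difference of 0.52, near the 0.43 of all tested genes. None passed in limma. At an unadjusted p under 0.05 there were 8 in the posterior and 0 in the anterior direction, against 7.24% and 0.788% of all tested genes. Tfdp1, the partner of E2F proteins, had levels of 3.80, 5.19 and 1.37 against 7.75, 6.94 and 5.37 (3.23 ± 0.81 SE; limma adjusted p = 0.520). E2f4, an E2F that mainly represses, differed by 3.01 ± 1.01, the GINS subunit Gins4 by 2.88 ± 1.01 and Donson, which acts at replication forks, by 2.58 ± 0.96 (SE). In all 4 genes the posterior libraries lay above the anterior ones, but they were picked by their small p. Over the list this held for 11 of 63 genes, against 12.3% of all tested genes. The reverse order held for 2, against 3.77%.

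Of 30 mitosis genes 23 had a higher posterior mean, with a median difference of 0.49 and none passing in limma, where 2 had an unadjusted p under 0.05 in the posterior direction and 0 in the anterior, near the 7.24% and 0.788% of all tested genes. These 2, named after their values were seen, were the spindle checkpoint gene Mad2l1 (3.23 ± 0.76 SE) and Cenpa, the centromeric histone (2.64 ± 0.64 SE). Of 15 genes of cell cycle arrest and slowing, 12 were in the fit, 6 in each direction, with a median of -0.04. None passed in limma. The 3 with an unadjusted p under 0.05 (0.788% of all tested genes in that direction) were also named after their values were seen. All 3 were higher in the anterior domain without overlap, against 3.77% of all tested genes, but they were picked by their small p. Ccng2, an atypical cyclin, had levels of 6.39, 5.57 and 4.84 against 1.83, 3.17 and 0 (-3.93 ± 0.94 SE; limma adjusted p = 0.520). The cyclin-dependent kinase inhibitor Cdkn1c and the antiproliferative gene Btg1 differed by -2.22 ± 0.83 and -1.74 ± 0.69 (SE). Differences between these lists and the 43 members were not tested.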

How the data were processed

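Smart-seq2 libraries from 3 anterior and 3 posterior pieces were sequenced after 18 cycles of preamplification, and per the labels' protocols HTSeq-count quantified reads aligned to an Ensembl mouse genome. TopHat2 2.0.4, Cufflinks 2.0.2 and the mm10 build are listed in the submitters' processing notes. The authors deposited log2(FPKM + 1) values. That scale was read from the values, since undoing it gave at most 6 significant digits for 98.8% to 99.1% of entries above 3. No source used here states any further normalization. Absolute depth is unknown, and relative depth was read from whole-read steps among low values.

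Differences were fitted with limma 3.58.1 (R 4.3.3), two-sided, with a mean-variance trend and a block for embryo, over 10914 genes averaging 1 FPKM or more, and adjusted over all of them by Benjamini-Hochberg. The fit was tested on simulated data with less noise than these libraries and no differences in depth. That test therefore does not show what the fit can detect here. The fit has 2 residual and 7.5 prior degrees of freedom. Pairing comes from the dissection, since both pieces were cut from 1 structure. Deviations of same-embryo pieces correlated at -0.07, 0.04 and -0.03. Nothing in the sources used here says that the 3 structures came from separate cultures, so p-values measure the spread between these samples. Fold changes on this scale understate those of low genes. Members and lists were chosen with earlier results of these data known. Values in each library are given for the 2 smallest p of each role group, Pcna, Mcm2 to Mcm7, Rrm2 and genes at 0 in at least 2 libraries, and the wider list is named by its 4 smallest p. Values of Gins1 and further low or high libraries were added after they were seen. Gene positions are from GENCODE M21 (GRCm38).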

Additional observations from a re-analysis of the deposited data

How the results depend on the processing

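No member passed the adjusted threshold under any of 12 alternatives. With no replicate block, the unpaired fit kept the median over members at 1.07. It had 8 members higher in the posterior domain at an unadjusted p under 0.05 in limma, against 6 in the paired fit. The same counts over the 10914 tested genes were 912 and 790. Quantile normalization gave 3 members and 527 of 10914 tested genes. Leaving out an embryo gave 2 to 5 members (0 to 1 in the anterior direction), where the share of all tested genes is not given here. Leaving out an embryo, the median over members minus that over all genes was 0.40 to 0.84, the nucleotide supply median 0.15 to 1.48, and members without overlap numbered 12 to 23 with the posterior above (19.9% to 31.1% of all tested genes) and 2 to 4 with the anterior above (8.84% to 14.0%). Leaving out anterior A or anterior C, both without the block and the latter chosen after seeing the data, these were 0.38 to 0.79, 0.11 to 1.34, 11 to 16 (15.8% to 19.6%) and 1 to 2 (8.69% to 9.46%). Without anterior C 1 gene of all tested passed, Mir682, and without anterior A 0. Quantile normalization and centring gave 7 and 9 members with the posterior above (7.49% and 8.84%) and 2 each with the anterior above (8.22% and 6.69%), and took the share of posterior-higher genes at an unadjusted p under 0.05 from 90.2% to 65.6% and 72.8%.

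Of the 43 genes 27 kept their direction throughout and 16 did not. With a pseudocount of 0.1 FPKM, Pole2 differed by -0.25. Under quantile normalization Mcm6, Orc6, Pole, Pole2 and Rrm1 differed by -0.13, -0.27, -0.63, -0.25 and -0.15, and after centring by -0.10, -0.24, -0.22, -0.29 and -0.20. Leaving out an embryo gave -0.073 to 1.22 for Cdt1, -1.22 to 0.82 for Chaf1b, -0.86 to 0.44 for Mcm10, -0.33 to 0.74 for Mcm6, -1.40 to 0.70 for Orc2, -0.089 to 0.33 for Orc6, -0.50 to 1.11 for Pold1, -0.16 to 2.92 for Pold2, -0.88 to 0.94 for Pole, -0.47 to 0.62 for Pole2, -0.15 to 2.14 for Rfc2, -0.055 to 1.08 for Rfc3, -0.13 to 0.41 for Rrm1, -0.046 to 1.99 for Tk1 and -0.49 to 0.15 for Tyms. Leaving out anterior A or C gave -0.57 to 0.90 for Cdt1, -0.43 to 0.22 for Chaf1b, -0.092 to 1.96 for Mcm3, -0.33 to 0.10 for Mcm6, -1.10 to 0.18 for Orc2, -0.20 to 0.24 for Orc6, -0.54 to 0.76 for Pole, -0.44 to 0.44 for Pole2, -0.14 to 2.11 for Tk1 and -0.44 to 0.11 for Tyms. The cause was not tested. Prim2 is not in the fit with a minimum mean of 5 FPKM.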
